A study of Mus musculus with 947 samples.

Results

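The miRNAs described here are 7 mature mouse miRNAs from 5 precursors that lie just past the 3′ end of Meg3 on chromosome 12, namely mmu-miR-673-5p, mmu-miR-493-3p, mmu-miR-337-5p, mmu-miR-337-3p, mmu-miR-540-5p, mmu-miR-540-3p and mmu-miR-665-3p. They were taken by name, whatever their values, from the 1076 miRNAs of an aging table and the 795 miRNAs of a parabiosis table, and all 7 were found in both. The aging cohort (TMS, C57BL/6JN mice, no treatment) was sampled at 10 ages between 1 and 27 months in 16 tissues, which made 769 small RNA libraries, 553 of them male and 216 female, with both sexes up to 21 months. A tissue had 31 to 56 libraries, and a tissue had 1 to 6 libraries at an age. The parabiosis cohort gave 176 libraries of 6 tissues (gonadal adipose tissue, heart, kidney, liver, limb muscle and mesenteric adipose tissue) from 30 male mice joined in pairs that share a circulation. Its groups were isochronic young (IY, C57BL/6JN, 3 or 4.5 months), heterochronic young (HY, mice carrying a GFP transgene on C57BL/6, 4 months), heterochronic aged (HA, 19 months) and isochronic aged (IA, 19 months), the aged mice being C57BL/6J or C57BL/6JN. The strain and the age in months of the young mice therefore differ between HY and IY along with the partner and cannot be told apart from it. Likewise the transgene of the HY mice differs between HA and HY along with age and cannot be told apart from it. A tissue had 6 to 8 libraries in a group, 1 for each mouse. Values are reads per 1000000 mapped reads (rpmm) as the authors scaled them, and since the miRNA values of a library sum to as much as 1067760 rpmm they are not parts of 1 total.

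Meg3 is a noncoding RNA of the imprinted Dlk1-Dio3 domain, in which the noncoding RNAs (Meg3, the Rtl1 antisense RNA, Rian and Mirg) are transcribed from the maternal chromosome and the coding genes, among them Dlk1 and Rtl1, from the paternal one. Many miRNA hairpins are processed from those maternal RNAs, and as a group they are known to be abundant in the embryo, the placenta and the adult brain. Each hairpin can give a 5p and a 3p strand, and a mature miRNA recognises its target mRNAs mainly through its seed, bases 2 to 8 counted from its 5′ end.

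The mature sequences (RefSeq, GRCm38.p6, all on the plus strand, written 5′ to 3′ with the seed in capitals) are shown in the order of the genome, since they define what was counted and show that no 2 of the 7 share a seed.
mmu-miR-673-5p: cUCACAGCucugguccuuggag
mmu-miR-493-3p: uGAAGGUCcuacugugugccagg
mmu-miR-337-5p: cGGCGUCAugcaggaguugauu
mmu-miR-337-3p: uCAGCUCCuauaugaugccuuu
mmu-miR-540-5p: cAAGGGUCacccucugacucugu
mmu-miR-540-3p: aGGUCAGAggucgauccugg
mmu-miR-665-3p: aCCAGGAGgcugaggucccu
Among the mature mouse miRNAs of the same RefSeq table, the seed of miR-673-5p was also that of miR-6985-3p and the seed of miR-540-3p that of miR-6915-5p, and the other 5 seeds occurred in no further miRNA. The precursor Mir673 spans chr12:109571990-109572080 and begins 264 bases past the annotated end of Meg3 (chr12:109541001-109571726). Mir493 (chr12:109580233-109580315) begins 8507 bases past that end. Mir337 (chr12:109585789-109585885), Mir540 (chr12:109586080-109586146) and Mir665 (chr12:109586314-109586407) follow within 619 bases of each other, separated by 195 and 168 bases. Rtl1 (chr12:109589193-109600330) lies past Mir665, on the minus strand. None of the 5 precursors lies inside an exon or an intron of another gene in the GRCm38 annotation. The mature strands lie at chr12:109572004-109572025 (miR-673-5p), chr12:109580283-109580305 (miR-493-3p), chr12:109585818-109585839 (miR-337-5p), chr12:109585850-109585871 (miR-337-3p), chr12:109586085-109586107 (miR-540-5p), chr12:109586122-109586141 (miR-540-3p) and chr12:109586368-109586387 (miR-665-3p).

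Depth had a median of 20.1 M mapped reads (M for 1000000) in either cohort, with extremes of 2.29 and 167 M in the aging cohort and 9.20 and 47.6 M in the parabiosis cohort. At the median depth 3 reads, the limit that a count of 0 allows, equal 0.149 rpmm, and limits of this kind cover counting error only. By their whole miRNA profile 11 aging libraries were closer to another tissue than to the one on their label, among them 1 pancreas and 1 subcutaneous adipose library at 3 months in which all 7 miRNAs were at 0, as were 27 parabiosis libraries, all from gonadal or mesenteric adipose tissue. The age, sex and parabiosis calls that these libraries changed are given with and without them. Marker miRNAs of brain, liver, heart, skeletal muscle, pancreas, skin and brown fat had their highest median in the labelled tissue. Kidney, gonadal adipose tissue and subcutaneous adipose tissue had the highest median of no marker examined. A miRNA was tested in a tissue if 10% or more of the libraries there had it at 1 rpmm or above, which held for 75 of the 112 pairs of a miRNA with a tissue in the aging cohort and left 37 pairs untested. These are bulk tissues, so fewer cells of a type and less miRNA per cell cannot be told apart.

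All 7 miRNAs had their highest median level in brain, where 6 of them reached between 7.67 and 88.8 rpmm and mmu-miR-493-3p stayed at 0.839 rpmm. Over the 51 brain libraries mmu-miR-540-5p had a lowest, median and highest level of 45.9, 88.8 and 186 rpmm, and it was the most abundant of the group. The corresponding values were 6.54, 74.0 and 198 rpmm for mmu-miR-337-5p and 13.0, 60.8 and 129 rpmm for mmu-miR-337-3p. The last precursor of the cluster and the minor strand of miR-540 were lower, at medians of 34.4 rpmm for mmu-miR-665-3p (9.59 to 64.9) and 28.6 rpmm for mmu-miR-540-3p (3.80 to 75.2). mmu-miR-673-5p, the miRNA nearest to Meg3, had 0.921, 7.67 and 14.5 rpmm. Levels of different miRNAs are compared here as reads of mature strands of nearly equal length, and the cloning efficiency of each strand was not measured.

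After brain, mesenteric adipose tissue (MAT), skin, gonadal adipose tissue (GAT), limb muscle and subcutaneous adipose tissue (SCAT) held intermediate levels. The median of miR-337-3p was 16.3 rpmm in MAT, 10.1 in skin, 9.01 in GAT, 7.93 in limb muscle and 5.98 in SCAT. Heart followed at 3.71 rpmm, and kidney, liver and marrow lay at 0.592, 0.506 and 0.184 rpmm. The other 6 miRNAs kept much the same order, with miR-540-5p at 19.3 rpmm in MAT, 4.06 in heart and 0.197 in marrow. In marrow no miRNA of the group passed the filter, and miR-493-3p and miR-673-5p were at 0 in 46 and 36 of 56 libraries.

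The spread between libraries was wide in the tissues of the middle range. In limb muscle miR-337-3p ran from 0 to 229 rpmm and in skin from 0.579 to 84.2 rpmm, a range within a tissue that exceeded the distance between most neighbouring tissues. Of 690 comparisons of a miRNA between a pair of tissues, 607 passed an adjusted p of 0.05 (limma), while 85.4% of all such miRNA comparisons in the table passed. Brain was higher than every other tissue in 104 of 105 comparisons, the exception being miR-493-3p against limb muscle, with a log2 difference of 0.06 and an adjusted p of 0.56 (limma). Brain exceeded MAT, the next tissue for most of the group, by log2 differences of 2.87 for miR-665-3p, 2.06 for miR-540-5p, 1.99 for miR-540-3p, 1.94 for miR-337-5p, 1.61 for miR-337-3p, 1.29 for miR-673-5p and 0.29 for miR-493-3p. These are differences of mean log2(rpmm + 1), a scale that understates changes of low miRNAs, and the largest of them was 6.08, for miR-540-5p between brain and marrow.

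Steps between neighbours in the order of tissues were mostly within the spread. For miR-337-3p, MAT stood above limb muscle by 0.56 (adjusted p = 0.0149, limma), but limb muscle, skin, GAT and SCAT did not differ from their neighbours beyond their spread. SCAT exceeded heart by 0.88, and heart, bone, pancreas, small intestine, lung and brown adipose tissue (BAT) again did not differ stepwise. Spleen was lower than BAT by 1.05, and liver, kidney and marrow closed the order. The number of neighbouring steps that passed was 6 of 15 for miR-337-3p, miR-337-5p and miR-540-5p, 6 of 12 for miR-540-3p, 3 of 9 for miR-665-3p, 3 of 6 for miR-673-5p and 1 of 4 for miR-493-3p.

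Within brain the levels differed by the plate that the annotation gives for each library, and the step it refers to is not stated there. On plate 10 (7 libraries of mice aged 1 to 27 months) miR-337-5p had a median of 11.3 rpmm, against 76.4 rpmm in the 42 brain libraries of other plates. The medians on plate 10 and on the other plates were 5.31 and 30.5 rpmm for miR-540-3p and 1.63 and 7.82 rpmm for miR-673-5p. The gap was narrow for miR-540-5p, at 68.3 against 90.4 rpmm. Of the 12 brain libraries with miR-337-5p under 30 rpmm, 6 were on plate 10. The part of the plate in these levels was not tested further, and values within plates stand beside the age results.

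The miRNAs rose and fell together across libraries of a tissue. Between miR-337-3p and miR-540-5p Spearman's rho was 0.90 over the 47 limb muscle libraries, 0.96 over the skin libraries and 0.95 over the SCAT libraries, points that share their library, depth and scaling. The median over all pairs of the group ran from 0.21 in bone to 0.83 in skin. The lowest value was −0.26, for miR-337-3p with miR-540-3p in heart. Across the 16 tissue means of log2 level, the miRNA most like each one, out of 615 tested in at least 5 tissues, came from the same domain. It was miR-434-3p for miR-665-3p (Pearson's r = 0.996), miR-434-5p for miR-540-3p (0.995), miR-376c-3p for miR-540-5p (0.992), miR-377-3p for miR-337-5p (0.990), miR-496a-3p for miR-673-5p (0.990), miR-540-5p for miR-337-3p (0.988) and miR-381-5p for miR-493-3p (0.908).

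The strands of miR-337 were recovered in nearly equal amounts in most tissues, and those of miR-540 were not. Over 703 libraries with at least 10 reads on the miR-337 hairpin, the mean 3p to 5p ratio was 0.956 in brain, 0.861 in skin, 1.31 in spleen, 1.79 in limb muscle and 1.91 in bone. In limb muscle 44 of 45 libraries had more 3p than 5p. Of the sum of squares of the log2 ratio 12.9% lay between tissues (permutation test, p = 1e-05, the smallest that 100000 shuffles can give), and for 21.5% in libraries with at least 30 reads. Plate alone accounted for 1.97%, and tissue added 13.2% after plate. For miR-540 the 5p strand dominated in every tissue, with a mean 3p to 5p ratio from 0.173 in bone to 0.344 in small intestine, and the tissue accounted for 6.08% (permutation test, p = 0.00011, 695 libraries).

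With age, the miRNAs were lower in limb muscle, skin, SCAT and GAT and, for some of them, in heart and bone. Over all libraries of a tissue, Spearman's rho between level and age was below −0.5 in 25 of the 75 tested pairs and above 0.5 in none, whereas 4.31% of all miRNA tests in the series were below −0.5 and 3.75% above 0.5. In 69 of the 75 pairs rho was below 0, and the median was −0.378, against 0.038 over all 8849 tests of a miRNA in a tissue. An adjusted p under 0.05 (100000 shuffles, adjusted over all miRNAs of a tissue) was reached by 37 pairs, where 17.9% of all tests did so. With scaling to miRNA reads 34 pairs were below −0.5, beside 6.58% of all tests below it and 2.85% above 0.5, and with median ratios 30 pairs, beside 5.71% and 3.55%. Without the libraries closest to another tissue the count was 25. Because the 7 miRNAs share hairpins, libraries and scaling, these counts are not independent of each other.

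In limb muscle 6 of the 7 miRNAs passed −0.5, where 16.5% of the miRNAs tested there did. Spearman's coefficient with age was −0.77 for miR-337-5p, miR-337-3p and miR-540-5p, −0.68 for miR-665-3p, −0.58 for miR-493-3p, −0.57 for miR-540-3p and −0.48 for miR-673-5p (47 libraries). For miR-337-5p the permutation p was 1e-05 and the adjusted p 8.53e-05. Pearson's r was −0.75 (permutation p = 1e-05), and −0.74 after the 2 libraries most distant in age from the median had been left out. Spearman's coefficient was −0.79 within plates, −0.78 within sets of 12 consecutive title numbers, −0.77 in males alone and −0.71 without the mice of 1 month. Within plates the other 5 kept values from −0.57 to −0.78, and without the mice of 1 month miR-493-3p and miR-540-3p came to −0.46 and −0.45. With the median-ratio scaling miR-540-3p was also −0.45. Depth and age had a rho of 0.09 in this tissue, and the summed level of all miRNAs and age 0.33.

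In skin all 7 passed −0.5, against 13.2% of the miRNAs tested there, at −0.72 for miR-540-3p, −0.70 for miR-673-5p, −0.65 for miR-493-3p, −0.63 for miR-540-5p, −0.60 for miR-337-5p and miR-665-3p, and −0.58 for miR-337-3p (47 libraries). Pearson's r ran from −0.53 to −0.69 with permutation p between 1e-05 and 0.00012, and from −0.52 to −0.68 without the 2 libraries farthest in age. Males alone gave −0.76 to −0.87, and plates taken separately gave −0.45 (miR-337-3p) to −0.68 (miR-673-5p). Without the mice of 1 month the range was −0.41 to −0.63, and 3 of the 7 still passed −0.5. A skin library at 21 months resembled liver, and without it the 7 values were −0.56 to −0.71.

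In SCAT, GAT and MAT every tested value was also negative, while in BAT none was. SCAT had 5 miRNAs past −0.5, with 11.2% of its miRNAs past it, at −0.64 for miR-540-5p and miR-337-5p, −0.63 for miR-665-3p, −0.60 for miR-337-3p and −0.52 for miR-540-3p (44 libraries, Pearson's r −0.51 to −0.60, permutation p 4e-05 to 0.00043, −0.38 to −0.51 without the 2 libraries farthest in age). Within plates these 5 were −0.47 to −0.55. Without the SCAT libraries closest to another tissue they were −0.58 (miR-540-3p) to −0.73 (miR-540-5p). GAT had 4 past −0.5, against 6.91%, at −0.68 for miR-540-5p, −0.61 for miR-337-3p, −0.60 for miR-665-3p and −0.55 for miR-337-5p (37 libraries, r −0.51 to −0.66, permutation p 2e-05 to 0.00126, −0.54 to −0.65 without 2). Within plates they were −0.51 to −0.67, and without the mice of 1 month only miR-540-5p, at −0.53, remained past −0.5. MAT, the tissue with the next level to brain, passed it for none, with values from −0.18 to −0.41.

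Heart had miR-665-3p at −0.62 and miR-337-5p at −0.52 (53 libraries, background 2.44%, r −0.59 and −0.55, permutation p 1e-05 and 2e-05, −0.59 and −0.50 without 2, within plates −0.63 and −0.56). Bone had miR-540-5p at −0.51 (48 libraries, background 1.5%, r −0.47, permutation p = 0.00078, −0.47 without 2), which came to −0.45 within plates. Without the mice of 1 month all 3 came inside −0.5, at −0.48 and −0.40 in heart and −0.49 in bone. In brain, where levels were highest, none passed and rho lay between 0.00 and −0.35. It passed in brain for miR-337-3p with scaling to miRNA reads (−0.56), for miR-337-5p with median ratios (−0.50), and for miR-337-5p (−0.57) and miR-540-5p (−0.52) in males alone. BAT was the tissue of the highest values, at 0.34 for miR-337-5p, 0.27 for miR-337-3p and 0.21 for miR-540-5p, none with an adjusted p under 0.05, and all 3 changed sign with the median-ratio scaling (−0.06 for miR-337-5p) and 2 of them within plates. The median of all BAT miRNAs was 0.385.

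The course in limb muscle was steepest in the first months. miR-337-5p had 13.0, 87.1, 111 and 117 rpmm in the 4 libraries at 1 month, the lowest from the 1 female among them, 25.98 to 39.1 rpmm (median 34.04) in the 6 at 3 months and 2.22 to 15.9 rpmm (median 5.69) in the 6 at 6 months. The 5 libraries at 21 months had 1.44, 1.91, 3.03, 3.28 and 3.81 rpmm, and the 3 at 27 months 1.40, 1.46 and 2.35 rpmm. The values at 3 months overlapped neither those at 6 months nor those of any later age. miR-540-5p had 26.3 to 57.6 rpmm (median 49.4) at 3 months, 6.58 to 18.2 rpmm (median 8.83) at 6 months and 1.90, 2.53, 3.89, 5.05 and 19.1 rpmm at 21 months. miR-337-3p had 47.1 to 86.8 rpmm at 3 months and 3.12, 3.89, 5.46, 6.56 and 9.06 rpmm at 21 months. For all 3 strands every library at 3 months was above every library at 21 months.

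Between 3 and 21 months the miRNAs, tested with limma in 13 tissues, fell in limb muscle and passed the test in no other tissue. Of 64 tests 7 passed, all lower at 21 months and all in limb muscle, where 1.62% of all miRNA tests and 17.4% of those of limb muscle were lower (2.71% and 3.18% of all tests with the miRNA-read and median-ratio scalings). The difference was −3.42 ± 0.57 (SE, log2 scale, 6 against 5 libraries) for miR-337-3p, a level 10.7-fold lower, with an adjusted p of 4.13e-06. It was −3.22 ± 0.43 for miR-337-5p (9.34-fold lower, adjusted p = 5.79e-08, limma) and −3.03 ± 0.44 for miR-540-5p (8.14-fold lower, adjusted p = 3.04e-07, limma). The 4 miRNAs of lower level had smaller differences on this scale of log2(rpmm + 1), which understates changes of low miRNAs. These were −1.35 ± 0.40 for miR-665-3p, −1.26 ± 0.44 for miR-540-3p, −1.22 ± 0.24 for miR-493-3p and −1.04 ± 0.25 for miR-673-5p. miR-665-3p had 2.28, 3.99, 4.04, 4.18, 5.56 and 16.5 rpmm at 3 months and 0.692, 0.942, 1.46, 1.60 and 2.60 rpmm at 21 months. Its call was lost without the library with 16.5 rpmm (−1.04, adjusted p = 0.0685, limma) and with the median-ratio scaling (−0.89, adjusted p = 0.206, limma). The call of miR-540-3p, at an adjusted p of 0.0393 (limma), was lost on leaving out any of 9 libraries and with the median-ratio scaling (−0.83, adjusted p = 0.331). With plate as a covariate the differences were −3.19 for miR-337-3p, −3.07 for miR-337-5p and −3.06 for miR-540-5p. In that fit miR-665-3p (−1.06, adjusted p = 0.0785, limma) and miR-540-3p (−1.12, adjusted p = 0.127, limma) no longer passed.

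Limb muscle as a whole moved in the same direction, since the median of its 546 miRNAs was −0.42 in this contrast, −0.63 with scaling to miRNA reads and −0.02 with median-ratio scaling. Relative to that, the other miRNAs of the domain moved alongside the group. Of the miRNAs past Rtl1, 46 of 50 were lower with a median of −1.98, of those of the Rtl1 antisense RNA 9 of 9 with a median of −2.39, and of the remaining miRNAs near Meg3 2 of 3 with a median of −1.49, beside 95 lower and 3 higher among all 546. Fibroblast marker miRNAs summed to 2926 to 6492 rpmm (median 3336) at 3 months and 537 to 3550 rpmm (median 1796) at 21 months, with 1 of 3 lower and none at 0. Skeletal muscle marker miRNAs summed to medians of 329962 and 405061 rpmm, with 1 of 3 lower. Their part in the difference was not tested.

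In SCAT the 6 tested miRNAs had differences from −0.50 to −1.46 and none passed. Without the SCAT library at 3 months in which the group was at 0, all 6 passed, at −0.83 to −2.64. In GAT miR-540-5p had −1.48 and miR-337-3p −1.27, neither past the test (adjusted p = 0.071 and 0.090, limma), and in brain the 7 differences lay between −0.11 and 1.06. Skin and BAT, with 2 libraries at 21 and at 3 months respectively, were not tested in this contrast. Marrow was fitted, but no miRNA of the group passed the filter there. In skin the median of miR-337-5p was 64.7 rpmm over 5 libraries at 1 month, 44.1 over 6 at 3 months, 9.64 over 4 at 12 months and 5.03 over 4 at 27 months. The 3p strand of miR-540 went from 20.03 to 9.88, 3.18 and 1.37 rpmm at the same ages, and miR-673-5p from 3.01 to 2.73, 0.498 and 0.189 rpmm. The 2 skin libraries at 21 months had 0.493 and 24.5 rpmm of miR-337-5p, the first being the library that resembled liver.

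Levels at 1 month were higher than at 3 months for a few of the miRNAs. Of 65 tests 6 passed, all higher at 1 month, while 0.866% of all miRNA tests were higher, or 3.14% and 1.93% with the miRNA-read and median-ratio scalings. In limb muscle miR-493-3p was higher by 1.29 ± 0.25 (SE) and miR-665-3p by 1.67 ± 0.43. The 4 libraries at 1 month had 3.40, 6.22, 6.93 and 8.47 rpmm of miR-493-3p, against 1.48 to 3.45 rpmm at 3 months. In skin miR-493-3p was higher by 0.68 ± 0.16, in liver miR-337-5p by 1.09 ± 0.24 and miR-337-3p by 0.74 ± 0.20, and in pancreas miR-337-3p by 1.54 ± 0.39 (adjusted p = 0.0160, limma). The pancreas call rests on the library at 3 months that was at 0 for the whole group, and without it the difference was 1.12 with an adjusted p of 0.143 (limma). Leaving out 1 library at a time, the call of miR-337-3p was lost without any of 6 libraries in liver and any of 3 in pancreas, that of miR-665-3p in limb muscle without either of 2 and that of miR-493-3p in skin without either of 2. In MAT the sign was the other way, with miR-337-3p at −1.06 (adjusted p = 0.144, limma), and on leaving out replicate 35 or replicate 04 at 1 month it passed as lower at 1 month, at −1.83 and −1.78 (adjusted p = 0.00539 and 0.00825, limma). miR-337-5p in MAT also passed as lower without either of them, miR-673-5p without the first and miR-665-3p without the second. None of the 6 passed when the recovered reads were tested with edgeR, which called 1.65% of all miRNA tests in this contrast.

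The age slopes were compared with brain directly. The slope on age, in log2 units per month, was lower than in brain in 12 of 105 tests and higher in none, while 3.12% of all such miRNA tests passed. In limb muscle the difference of slopes was −0.138 ± 0.021 (SE) for miR-540-5p, −0.134 ± 0.026 for miR-337-3p, −0.123 ± 0.029 for miR-337-5p, −0.0899 ± 0.019 for miR-665-3p and −0.0547 ± 0.013 for miR-493-3p. In skin it was −0.0941 for miR-540-3p, −0.0820 for miR-540-5p, −0.0683 for miR-665-3p and −0.0575 for miR-673-5p. SCAT added miR-540-5p and miR-665-3p, at −0.0620 and −0.0634, and GAT miR-540-5p, at −0.0590. Without the libraries closest to another tissue the SCAT values were −0.0739 and −0.0687, and miR-673-5p in skin was −0.0572 with an adjusted p of 0.0531 (limma). Without the mice of 1 month 4 of the 12 passed.

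The host RNAs of the domain were read as fragments in the same libraries. Fragments of Meg3 had a rho with age of −0.17 in limb muscle and −0.02 in skin. Fragments of Rian, which carries the snoRNAs and some miRNAs of the domain, had −0.57 in limb muscle, −0.55 in skin, −0.61 in SCAT and −0.58 in GAT. They also had −0.56 in MAT and −0.53 in lung and in pancreas, where no miRNA of the group passed −0.5. In BAT, where the group had positive values, Rian had −0.31, and in spleen 0.11. Fragments of Mirg, the host of the distal miRNA cluster, had −0.64 in limb muscle and −0.76 in skin. The most abundant transcript of each gene was used, with brain medians of 5319 rpmm for Rian, 322 for Mirg and 214 for Meg3. Over all tissues the rho of the other miRNAs of the domain had medians of −0.307 past Rtl1 (169 of 593 tests below −0.5), −0.288 for the Rtl1 antisense RNA (29 of 112) and −0.203 for the remaining miRNAs near Meg3 (5 of 14).

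The sexes differed in skin. Over ages from 1 to 21 months, with age as a factor, 11 of 75 tests of female against male passed, 8 lower and 3 higher in females, while 6.15% of all miRNA tests passed (355 lower and 189 higher). The split depends on the scaling, with 7 lower and 10 higher for the group under either other scaling, and 256 lower and 276 higher of all tests with miRNA reads and 299 lower and 300 higher with median ratios. All 7 miRNAs were lower in female skin (13 female and 28 male libraries), where 16.2% of the miRNAs tested were lower. miR-337-5p had a lowest, median and highest level of 2.03, 5.83 and 12.3 rpmm in females and 0.493, 19.7 and 91.8 rpmm in males, and the difference was −1.67 ± 0.20 (SE, log2 scale) with an adjusted p of 6.46e-09. The group ranges overlapped, but no female library exceeded 12.3 rpmm.

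The other strands followed in female skin. miR-337-3p had 0.579, 5.17 and 33.98 rpmm in females and 0.916, 13.7 and 84.2 rpmm in males, and fell short in females by −1.52 ± 0.20. miR-540-5p had 2.37, 4.29 and 37.3 rpmm against 1.48, 13.1 and 90.2 rpmm (−1.30 ± 0.18). miR-665-3p differed by −1.22 ± 0.16, miR-540-3p by −1.15 ± 0.18, miR-673-5p by −0.71 ± 0.13 and miR-493-3p by −0.32 ± 0.08. With plate as a covariate all 7 passed, at −0.36 to −1.81. They also stayed lower with both other scalings, under which the median of all 544 skin miRNAs moved from 0.11 to −0.08 with miRNA reads and to 0.02 with median ratios. The miRNAs past Rtl1 were lower in 52 of 52 tests (median −1.05) and those of the Rtl1 antisense RNA in 9 of 9 (median −1.19), beside 88 lower and 86 higher among all skin miRNAs.

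Marker miRNAs of other cell types also differed between female and male skin. Fibroblast markers were lower in females for 2 of 3, with median sums of 7266 against 10016 rpmm (ranges 2534 to 10189 and 789 to 19610), and none was at 0. Skin epithelium markers were higher for 2 of 2, with 29901 against 21136 rpmm, and general epithelium markers for 3 of 4, with 4983 against 2946 rpmm. Depth was alike, at medians of 25.3 and 27.5 M reads. Their part in the difference was not tested.

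Few sex calls were made outside skin. In GAT females were higher for miR-540-5p by 0.84 ± 0.21 and for miR-665-3p by 0.64 ± 0.19. In limb muscle miR-665-3p was higher in females by 0.91 ± 0.19 (adjusted p = 0.00302), at 1.46, 5.43 and 16.5 rpmm in 13 females against 0, 1.60 and 26.1 rpmm in 29 males. In SCAT miR-337-3p was lower in females by −0.70 ± 0.21 (adjusted p = 0.0127, limma), a call lost with both other scalings and with edgeR. Without the libraries closest to another tissue it was −0.56 (adjusted p = 0.0295, limma). No miRNA of the group passed in the other tissues.

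In the parabiosis cohort the difference between aged and young was again found in limb muscle. The filter left 23 pairs of a miRNA with a tissue, 6 in MAT, 5 in GAT, 5 in limb muscle, 4 in heart and 3 in kidney, and none in liver. Between the isochronic groups (IA against IY) 9 of 23 passed, all lower in aged mice, while 8.13% of all miRNA tests passed. miR-337-3p in limb muscle had a lowest, median and highest level of 10.8, 20.2 and 46.9 rpmm in IY (n = 8) and 2.45, 2.93 and 4.30 rpmm in IA (n = 8). The groups did not overlap, and the difference was −2.45 ± 0.20 (SE, log2 scale), 5.46-fold lower. miR-540-5p had 6.23, 10.8 and 19.7 rpmm against 1.203, 1.90 and 2.47 rpmm (−2.01 ± 0.19), and miR-337-5p 4.92, 8.20 and 12.3 rpmm against 1.15, 1.90 and 2.88 rpmm (−1.61 ± 0.18). Neither strand overlapped between these groups. miR-665-3p differed by −1.05 ± 0.19 and miR-540-3p by −0.97 ± 0.18, so that all 5 tested in limb muscle passed, where 12.7% of its miRNAs were lower. The median of all its miRNAs was −0.11, and 0.04 with median-ratio scaling. With the pool number as a covariate the 5 differences were −0.97 to −2.45, and 7 of the 23 tests passed.

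Other miRNAs of the domain in the same contrast were lower in 39 of 40 tests past Rtl1 (median −0.97) and in 7 of 7 of the Rtl1 antisense RNA (median −2.19), beside 63 lower and 9 higher of all 495 limb muscle miRNAs. No marker list had a member past the test there, and fibroblast markers had median sums of 3302 rpmm in IY and 2654 rpmm in IA. Fragments of Rian had medians of 133 rpmm in IY, 146 in HY, 54.1 in HA and 46.5 in IA. The other host RNAs showed no drop of this size. In the same order of groups, Meg3 had medians of 23.9, 22.3, 21.5 and 19.99 rpmm. Mirg, read from another transcript than in the aging cohort, had 5.77, 5.32, 6.53 and 5.48 rpmm. Differences of the host RNAs between the groups were not tested. In GAT miR-540-5p was lower in IA by −1.25 ± 0.22, miR-337-3p by −1.003 ± 0.21 and miR-540-3p by −0.77 ± 0.18, and in heart miR-337-5p by −0.47 ± 0.16 (adjusted p = 0.0418, limma), a call lost on leaving out any of 9 libraries. Without the GAT libraries closest to another tissue, miR-540-5p was −1.34 and miR-337-3p −0.91 (adjusted p = 0.00238 and 0.0106, limma), while miR-540-3p, at −0.56, no longer passed (adjusted p = 0.0910, limma).

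**Figure D1:**
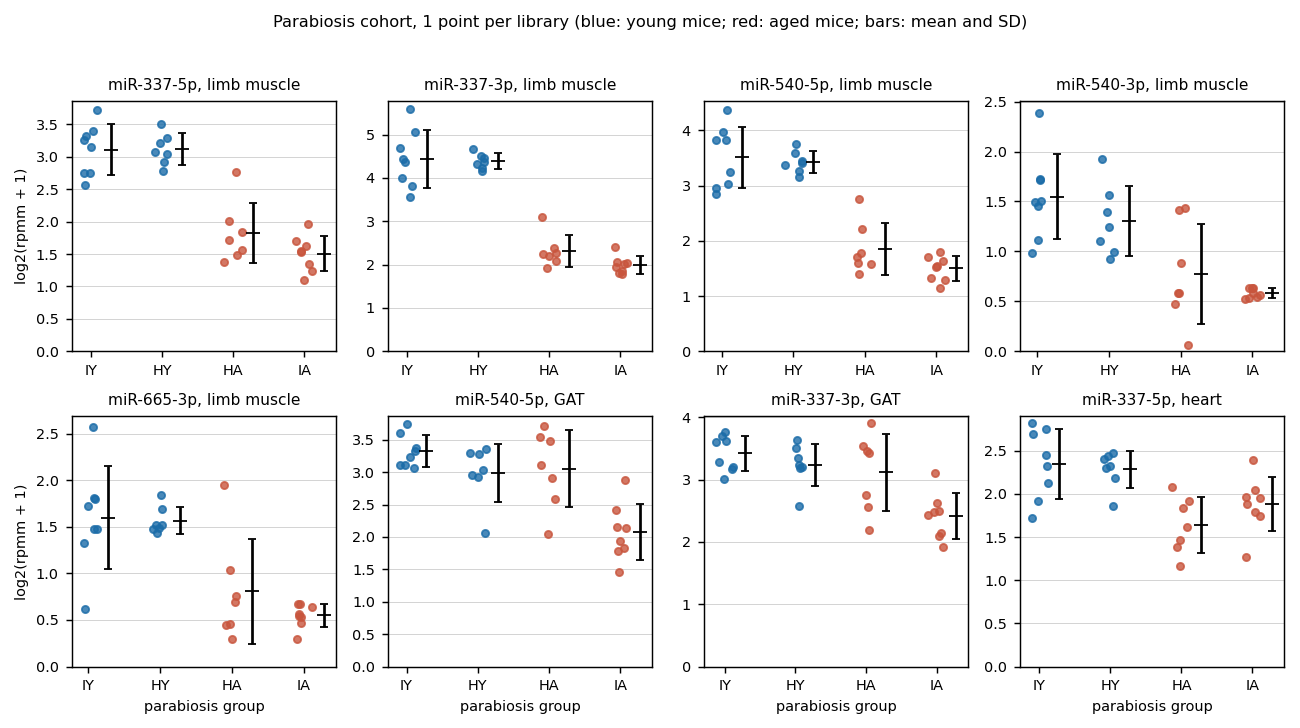
Level as log2(rpmm + 1) in the 4 parabiosis groups for 5 miRNAs in limb muscle, 2 in GAT and 1 in heart, with 1 point for each mouse (blue young, red aged) and bars at the mean and SD. In limb muscle the aged groups HA and IA lie below the young groups HY and IY for miR-337-3p and miR-540-5p. The same holds for miR-337-5p except that the HA mouse 14A (5.79 rpmm) lies within the IY range. HA and HY overlap for miR-665-3p and miR-540-3p. For miR-337-3p the medians are 3.74 rpmm in HA and 2.93 rpmm in IA, against 19.6 rpmm in HY and 20.2 rpmm in IY.

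Between the partners of heterochronic pairs (HA against HY, 7 pairs) 7 of 23 passed, all lower in the aged partner, while 9.81% of all miRNA tests passed. The HY partners carried the GFP transgene and the HA partners did not, so genotype and age cannot be told apart here. In limb muscle miR-337-3p had 16.9, 19.6 and 24.6 rpmm in HY and 2.78, 3.74 and 7.56 rpmm in HA, again without overlap (−2.08 ± 0.22). The difference was −1.57 ± 0.21 for miR-540-5p, −1.29 ± 0.19 for miR-337-5p and −0.76 ± 0.21 for miR-665-3p, and −0.53 for miR-540-3p did not pass (adjusted p = 0.0665, limma). The aged partner was lower in 7 of 7 pairs for miR-337-3p, miR-337-5p and miR-540-5p and in 6 of 7 for the other 4 miRNAs. In heart miR-337-5p was lower in HA by −0.65 ± 0.17 (adjusted p = 0.00847, limma), at 1.24, 2.06 and 3.22 rpmm against 2.62, 4.03 and 4.57 rpmm in HY. miR-337-3p (−0.48, adjusted p = 0.0308, limma) and miR-540-5p (−0.46, adjusted p = 0.0301, limma) also passed in heart, calls lost on leaving out any of 7 and any of 6 libraries. With the pair number as a fixed block their adjusted p came to 0.0501 and 0.0798 (limma), so neither passed. Marker miRNAs moved in heart as well, with 1 of 2 heart markers lower and 2 of 4 epithelium markers higher in HA.

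Aged mice with a young partner were then set against aged mice with an aged partner. HA against IA, which shares its libraries with the contrasts above, had 1 of 23 past the test, while 0.965% of all miRNA tests passed. In GAT miR-540-5p was higher in HA by 0.98 ± 0.23 (adjusted p = 0.0309, limma), at 3.11, 7.66 and 12.1 rpmm against 1.74, 3.12 and 6.35 rpmm in IA, ranges that overlapped. The IY and HY mice had medians of 8.72 and 7.16 rpmm. With pool as a covariate it was 0.97 (adjusted p = 0.0389, limma). The call was lost on leaving out any of 8 libraries, and without the GAT libraries closest to another tissue the difference was 1.1995 with an adjusted p of 0.0538 (limma). In the same contrast 1 of 3 skeletal muscle markers was lower in GAT, and epithelium markers summed to 76.9 to 26582 rpmm in IA and 55.3 to 15845 rpmm in HA. Their part in the difference was not tested. In MAT miR-337-5p had 1.13, miR-540-5p 1.02, miR-337-3p 0.97 and miR-673-5p 0.40, none past the test (adjusted p = 0.189 for the first 3, limma). In limb muscle the 5 differences were 0.19 to 0.36, with adjusted p of 0.788 or more (limma), so a difference between HA and IA was not detectable there with 7 and 8 mice.

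Young mice with an aged partner did not differ from young mice with a young partner by this test. HY against IY had 0 of 23 past the adjusted threshold and 0 at an unadjusted p under 0.05 (limma), 0 with edgeR, and values from −0.34 to 0.17, beside 0.0% of all 3211 miRNA tests adjusted and 4.83% unadjusted. In limb muscle the HY medians of 19.6 rpmm for miR-337-3p, 7.39 for miR-337-5p and 9.68 for miR-540-5p lay inside the IY ranges. miR-493-3p was tested in no tissue of this cohort, and miR-673-5p in MAT alone.

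The strands of miR-337 in limb muscle kept different proportions in the parabiosis groups. The mean 3p to 5p ratio was 2.70 in IY and 2.60 in HY, against 1.58 in HA and 1.62 in IA, with no test made. In limb muscle of the aging cohort the log2 ratio had a rho with age of −0.06, so the 2 cohorts are given side by side.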

How the data were processed

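Small RNA from mouse tissues was sequenced single-end, and the authors mapped the reads to mm10 and miRBase with the miRMaster pipeline. What the authors deposited is a normalised signal for each RNA, namely its reads per 1000000 mapped reads of the library (rpmm). Libraries under 2 M aligned reads (M for 1000000) had been left out by the authors. Each value is scaled to the mapped reads of its library, so a class of RNA that takes more reads lowers the others. The miRNA values alone sum to as much as 1067760 in a library, and how reads that map more than once were counted is not given in the sources used here. Of 771 aging libraries 2 columns were not used, because their names differ from the label of the library they are paired with in the annotation. The members and lists were chosen with earlier results of these data known.

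Values were filtered at 1 rpmm in 10% of a tissue's libraries and tested as log2(rpmm + 1) with limma 3.58.1 in R 4.3.3, with Benjamini-Hochberg adjustment over all miRNAs of a tissue and contrast. All ages, or all 4 parabiosis groups, of a tissue entered 1 fit. Sex was fitted with age as a factor, and slopes with age as a number. Spearman's rank correlation and its permutation p used scipy 1.17.1. Whole reads were obtained on the assumption that a library's lowest non-zero value among RNAs other than miRNAs is 1 read (tolerance 0.05 reads), and 100% of the values of the 7 miRNAs came out whole. The reads gave the depth and an alternative test with edgeR 4.0.16. Library values were also scaled to miRNA reads and by median ratios. Plate, sets of 12 title numbers, the pair number, a ratio rule, other filters and pseudocounts and each left-out library were further alternatives, and the fits were tested on simulated data.

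Each library is 1 tissue of 1 mouse, and p-values measure the spread between these libraries. All 7 miRNAs were named in every comparison, with the tissue of the largest rho in each direction, every call, and, without a call in parabiosis, the tissue of the largest difference between HA and IA. Sequences and precursor positions are from RefSeq, and gene positions from GENCODE for GRCm38. No columns of the authors' own comparisons were used.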

Additional observations from a re-analysis of the deposited data

Results flagged for a closer look

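The age slope differed from that of brain, by a test of the difference of slopes (limma, log2 units per month, tissue minus brain), for 12 pairs of a miRNA with a tissue. In limb muscle these were miR-540-5p (−0.138), miR-337-3p (−0.134), miR-337-5p (−0.123), miR-665-3p (−0.0899) and miR-493-3p (−0.0547). In skin they were miR-540-3p (−0.0941), miR-540-5p (−0.0820), miR-665-3p (−0.0683) and miR-673-5p (−0.0575). In SCAT they were miR-665-3p (−0.0634) and miR-540-5p (−0.0620), and in GAT miR-540-5p (−0.0590).

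A library stood far from the others of its group, by Dixon's criterion, in 13 of 68 groups of 4 to 10 libraries. The criterion is set at 5% for normally distributed values. It was applied to rpmm and not to log2 values, so 5% need not be the share that chance gives here. The groups share libraries and hairpins, so they are not independent. In limb muscle of the aging cohort, replicate 40 at 3 months was high for miR-665-3p (16.5 rpmm), miR-540-3p (8.98 rpmm) and miR-493-3p (3.45 rpmm). Replicate 28 at 21 months was high for miR-540-5p (19.1 rpmm), and in liver replicate 37 at 1 month was low for miR-337-3p (0.253 rpmm).

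In limb muscle of the parabiosis cohort, the HA mouse 14A was high for miR-337-3p (7.56 rpmm), miR-337-5p (5.79 rpmm) and miR-665-3p (2.85 rpmm). The IY mouse 16A was high for miR-665-3p (4.94 rpmm) and miR-540-3p (4.24 rpmm), and the IA mouse 9B for miR-337-3p (4.30 rpmm). In GAT the IY mouse 16A stood apart for miR-540-3p (4.62 rpmm) and the HY mouse 12B, whose library was closest to lung, for miR-540-5p (3.17 rpmm).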

How the results depend on the processing

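For the single miRNAs past a threshold, of 790 values under alternatives 693 kept direction and side of the threshold, 97 lost the threshold and none reversed. Values that had not passed are outside this count, and some of them changed sign, as in BAT. The 25 miRNAs and tissues past a rho of −0.5 came to 12 without the mice of 1 month. Of the counts by sex (11, with 8 lower), miRNA-read and median-ratio scaling gave 17 each (7 lower, 10 higher), edgeR on recovered reads 15 (7 lower, 8 higher) and plate as a covariate 17 (13 lower, 4 higher). Of all sex tests 2.89% were lower and 3.12% higher with miRNA reads, 3.38% and 3.39% with median ratios, and 3.22% and 3.89% with edgeR. For 21 against 3 months (7), a rule on ratios of group means with an unadjusted p under 0.05 (limma) gave 19. This ratio rule called 12.5% of all tests higher and 5.68% lower. With edgeR the count was 12, beside 3.95% of all tests higher and 4.33% lower. Leaving out libraries closest to another tissue gave 13. For 1 against 3 months (6) the ratio rule gave 23, a filter of 1 rpmm in 50% of libraries 2, a pseudocount of 0.1 rpmm 1 and edgeR 0. The ratio rule called 10.3% of all tests higher and 5.09% lower in this contrast. Slopes against brain (12) gave 20 with miRNA-read scaling, 22 with median ratios and 4 without 1 month. Of all slope tests 4.77% were higher and 4.20% lower with miRNA reads, and 5.92% and 4.66% with median ratios. HA against IA (1) gave 6 by the ratio rule, 3 with either scaling and with edgeR, and 0 without libraries closest to another tissue, an alternative added after the data were seen. Of all tests of HA against IA the ratio rule called 8.94% higher and 2.52% lower, and edgeR 3.49% and 1.31%. Scaling to miRNA reads called 1.46% higher and 0.249% lower, and median ratios 1.49% and 0.592%. IA against IY (9) gave 18 by the ratio rule, which called 5.36% of all tests higher and 9.84% lower. The miR-337 strand ratio went from 12.9% to 21.5% with at least 30 reads. The causes were not tested.

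Leaving out 1 library at a time gave 5 to 13 calls for 21 against 3 months (137 libraries, the 13 without SCAT replicate 16 at 3 months), 5 to 9 for 1 against 3 months (140), 0 to 3 for HA against IA (72), 0 for HY against IY (74), 8 to 11 for IA against IY (79) and 5 to 8 for HA against HY (67). For HA against IA the GAT libraries whose loss gave 0 were HA 2A, 5A, 11A, 12A and 14A and IA 6A, 7A and 19A, and those giving 3 were HA 1A and 20A and IA 7B.

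The 7 heterochronic pairs, each counted in every tissue with both partners, gave 39 correlations of the partners' deviations, which are not independent. Of these 25 were over 0.1 (from −0.69 to 0.86). By tissue it was 7 of 7 in liver (median 0.37), 6 of 7 in heart, 5 of 7 in limb muscle and 3 of 6 in kidney. In GAT it was 2 of 7 (median −0.32) and in MAT 2 of 5 (median −0.36). Of the 39 HA libraries 12 correlated best with their own number. In isochronic pairs, counted by tissue in the same way, 9 of 23 aged (median 0.0093) and 4 of 24 young (median −0.049) correlations were over 0.1. With the pair number as a replicate block, HA against HY gave 5 calls in place of 7 (heart miR-337-3p at an adjusted p of 0.0501 and miR-540-5p at 0.0798, limma), HA against IA 2 and IA against IY 13 as a random effect. In this last fit heart miR-337-5p came to 0.0558 (limma).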
